A study of Mus musculus with 12 samples.

Results

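Cpa3 and 8 other genes by which mast cells are recognised were followed across Notch1-driven mouse T cell acute lymphoblastic leukaemias (T-ALL) and normal thymocytes, each with and without MBD2. The genes were Cpa3, Kit, Fcer1a, Ms4a2, Hdc, Cma1, Tpsb2, Mitf and Gata2, and every probe set that the array annotation assigns to just 1 of them was taken: 15 probe sets for 9 genes, of 34945 such probe sets for 18193 genes on the array. Cpa3 was chosen by its intensities in this study, as the gene with the largest difference between MBD2-/- and MBD2+/+ leukaemias, and the others were then added to tell a mast cell programme from Cpa3 alone. For that comparison, and for others that use the MBD2-/- leukaemia arrays, the values of the 9 genes are therefore descriptions and carry no p-value.

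The study has 4 groups of 3 mouse arrays. The MBD2-/- leukaemias and the MBD2+/+ leukaemias were GFP+ bone marrow cells, sorted by flow cytometry from transplant recipients once GFP+ cells made up more than 50% of white blood cells in peripheral blood. The MBD2-/- and MBD2+/+ DP (double positive) cells were CD4+CD8+ thymocytes sorted from untransplanted steady-state mice. The labels give no age, sex or strain and do not state whether samples came from separate animals, so the error behind each p-value is the spread among these arrays, which may be technical. Values are the authors' intensities on a linear scale. Control probe sets that had no target reached at most 35.3, and intensities at or below this floor cannot be told from background.

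Mast cells are tissue-resident cells of the myeloid lineage that store preformed mediators in granules and release them when antigen crosslinks IgE bound to the high-affinity receptor FceRI. CPA3 is a carboxypeptidase stored in those granules together with chymases and tryptases, and KIT is the receptor for stem cell factor, on which mast cells depend for survival. Neither KIT nor GATA2 is restricted to mast cells, since haematopoietic stem and progenitor cells also use both. The study has no group of mast cells or of normal progenitors, so it cannot show how restricted Cpa3, Hdc and the other genes are. MBD2 is a protein that binds methylated CpG dinucleotides in DNA and recruits a repressive complex.

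Because MBD2 reads methylated CG dinucleotides, the 250 bases before the start sites of these genes are of interest, although methylation itself was not measured. Sequences are those of RefSeq on GRCm38.p6, and 8 of 9 genes had an entry. The windows of the 4 genes with high levels in MBD2-/- leukaemias are shown first, followed by Fcer1a, a gene at background on every array; all run 5′ to 3′ on the gene's strand and capitals mark CG dinucleotides. The positions are chr3:20242182-20242431 on the minus strand for Cpa3, chr2:126618679-126618928 on the minus strand for Hdc and chr5:75574737-75574986 on the plus strand for Kit. Those of the other two are chr6:88193641-88193890 on the plus strand for Gata2 and chr1:173227230-173227479 on the minus strand for Fcer1a.
Cpa3: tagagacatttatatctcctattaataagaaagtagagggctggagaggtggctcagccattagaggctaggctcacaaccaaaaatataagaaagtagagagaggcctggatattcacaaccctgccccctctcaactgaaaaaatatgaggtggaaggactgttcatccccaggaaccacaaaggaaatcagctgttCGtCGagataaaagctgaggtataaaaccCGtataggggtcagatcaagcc
Hdc: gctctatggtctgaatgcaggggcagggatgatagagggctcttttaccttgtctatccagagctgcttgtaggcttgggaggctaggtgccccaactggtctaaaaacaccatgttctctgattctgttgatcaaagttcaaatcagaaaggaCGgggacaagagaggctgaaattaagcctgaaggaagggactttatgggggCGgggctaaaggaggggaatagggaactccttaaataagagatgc
Kit: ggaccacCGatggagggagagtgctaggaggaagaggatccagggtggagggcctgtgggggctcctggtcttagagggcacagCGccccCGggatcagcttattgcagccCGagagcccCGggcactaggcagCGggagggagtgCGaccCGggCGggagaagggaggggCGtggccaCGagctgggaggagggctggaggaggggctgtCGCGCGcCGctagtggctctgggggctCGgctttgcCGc
Gata2: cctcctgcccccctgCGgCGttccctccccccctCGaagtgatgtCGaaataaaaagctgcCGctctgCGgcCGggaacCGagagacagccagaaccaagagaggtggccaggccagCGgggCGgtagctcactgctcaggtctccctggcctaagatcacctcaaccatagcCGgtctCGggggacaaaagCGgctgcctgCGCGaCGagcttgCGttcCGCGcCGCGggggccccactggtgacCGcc
Fcer1a: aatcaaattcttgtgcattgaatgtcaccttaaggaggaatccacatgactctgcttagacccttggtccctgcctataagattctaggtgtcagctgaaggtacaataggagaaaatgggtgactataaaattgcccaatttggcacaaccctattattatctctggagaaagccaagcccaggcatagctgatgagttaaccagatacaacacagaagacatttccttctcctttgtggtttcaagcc

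The number of CG dinucleotides differed widely among the genes with high levels in MBD2-/- leukaemias. The Cpa3 window held 3 and the Hdc window 2, and 29% and 18.8% of the 32851 windows in the RefSeq table held fewer. The Kit window held 17 and that of the first Gata2 start site 22, more than 76.5% and 85.2% of windows. The median over all windows was 6, so these 4 genes lie on both sides of it. Fcer1a held 0, Ms4a2 1 and Cma1 2, while the 3 Mitf start sites held 15, 4 and 3. For the first Mitf start site, 72.7% of windows held fewer. Of the letters that GATA factors bind, only AGATAA and TGATAA were searched, on both strands, and they occurred in 16.6% of all windows. They were found in 5 of the 12 windows of these genes: 3 matches for Ms4a2, and 1 each for Cpa3, Fcer1a and 2 of the 3 Mitf start sites. Other forms, such as the letters TGATAG that stand in the Hdc window, were not searched. A match describes letters only, not binding.

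Mbd2 itself followed the labelled genotypes. It measured 41.4, 55.7 and 66.0 in MBD2-/- leukaemias against 820 ± 119 (SD, n = 3) in MBD2+/+ leukaemias, and 72.1 ± 10.7 in MBD2-/- DP cells against 1136 ± 206 in MBD2+/+ DP cells. The leukaemia groups also differed in sex-linked transcripts. Xist measured 36.5 ± 4.36 in MBD2-/- and 4193 ± 543 in MBD2+/+ leukaemias, and Eif2s3y 519 ± 51.5 and 7.31 ± 0.29. In MBD2-/- and MBD2+/+ DP cells Xist measured 39.7 ± 3.14 and 35.4 ± 9.07, and Eif2s3y 262 ± 111 and 395 ± 167. Sex and genotype cannot be told apart in the leukaemias, nor sex and leukaemia between MBD2+/+ leukaemias and MBD2+/+ DP cells. The MBD2 effect in leukaemia minus that in DP cells carries the same limit. A poly-A control signal was present on 5 of 12 arrays, namely MBD2-/- leukaemia 1, MBD2+/+ leukaemias 1 and 2, and MBD2+/+ DP 1 and 2. The ratio of 3′ to 5′ Gapdh probe sets, a sign of RNA or label integrity, ran from 0.964 to 1.14 on those arrays and from 1.12 to 3.68 on the others. Within the arrays with and without this signal the log2 difference between leukaemia genotypes was 7.51 and 7.87 for Cpa3, 4.11 and 3.90 for Kit, 2.57 and 2.53 for Hdc, and 1.53 and 1.13 for Gata2.

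In MBD2-/- leukaemias 4 of the 9 genes stood above MBD2+/+ leukaemias: Cpa3, Kit, Hdc and, by 3.10-fold, Gata2. The granule chymase Cma1, the tryptase Tpsb2 and both subunits that are specific to FceRI, Fcer1a and Ms4a2, stayed at background on all 12 arrays, and Mitf was at background in both leukaemia groups. Of the 6 genes that passed the filter on low values, 4 passed limma's threshold as higher and 0 as lower. Over all 15420 genes tested, 9.19% were higher and 6.98% lower in this comparison. In 4 of the 6 genes the groups did not overlap, with MBD2-/- leukaemias higher, as in 15% of all genes tested. Since it is the comparison by which Cpa3 was chosen, nothing further is read from that count. Cma1, Fcer1a and Ms4a2 did not pass the filter, and Mitf passed it through the DP arrays, where it is higher but near the floor.

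**Figure D1:**
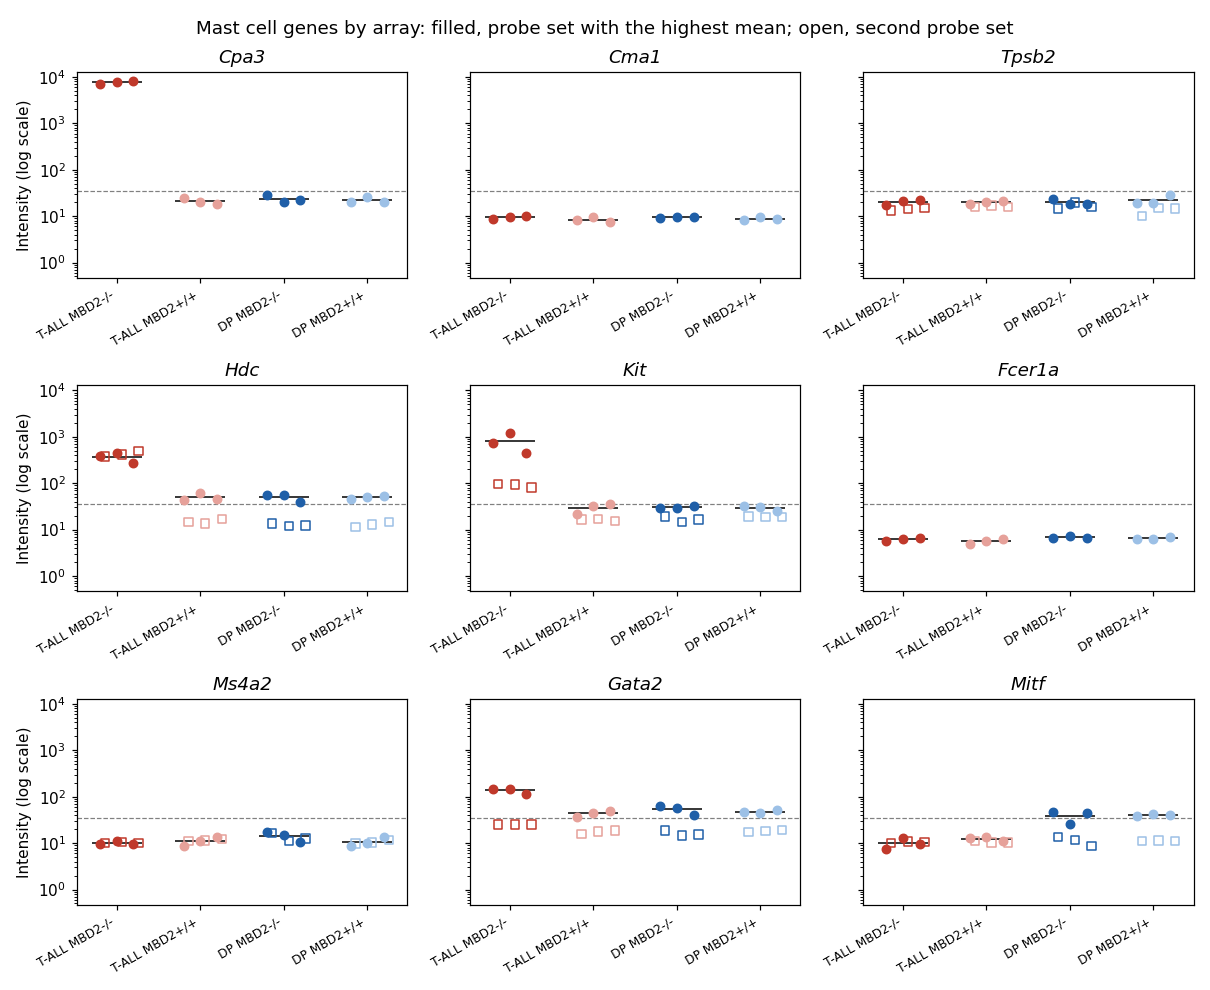
Intensity on a log axis of each of the 9 genes in the 4 groups, with 1 point per array, filled for the probe set with the highest mean and open for a second probe set. Horizontal bars are means of the filled points, and the dashed line is the background floor of 35.3. Cpa3, Hdc, Kit and Gata2 stand out in MBD2-/- leukaemias, while Cma1, Tpsb2, Fcer1a and Ms4a2 lie below the floor in all groups.

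Cpa3, the mast cell carboxypeptidase (chromosome 3, 20215616 to 20242209), measured 6912, 7885 and 8070 in MBD2-/- leukaemias, against 24.3, 19.8 and 18.1 in MBD2+/+ leukaemias. It measured 28.1, 19.7 and 21.8 in MBD2-/- DP cells and 20.4, 25.2 and 19.8 in MBD2+/+ DP cells. The 3 MBD2-/- leukaemias were alike and all 9 other arrays were below the floor, with overlapping ranges. The difference between leukaemia genotypes was 7.70 (SE 0.11) on the scale of log2(intensity + 16) and ranked 1 of 15420. Against the floor this was at least 216-fold higher in MBD2-/- leukaemias than in MBD2+/+ leukaemias. This bound and those that follow compare geometric means, with each lower array taken at the floor or its own value, whichever is higher.

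Among the other granule products, Cma1 (mast cell chymase) ranged from 7.48 to 10.1 over the 12 arrays. Tpsb2, a tryptase, ranged from 17.6 to 28.3 on one probe set and from 10.0 to 19.8 on the other. No array of either gene exceeded the floor, so no level of the classic chymase or tryptase was measurable beside the high Cpa3 signal.

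Hdc encodes histidine decarboxylase, the enzyme that makes histamine (chromosome 2, 126593659 to 126624025). Its probe set with the highest mean gave 385, 441 and 266 in MBD2-/- leukaemias, against 43.3, 60.7 and 46.4 in MBD2+/+ leukaemias. DP cells gave 56.4, 56.4 and 39.9 with MBD2-/- and 45.7, 50.2 and 53.8 with MBD2+/+. The MBD2-/- leukaemias lay above every other array, with a fold of 7.18 over MBD2+/+ leukaemias and a log2 difference of 2.50 (SE 0.20). The second probe set gave 375, 414 and 494 in MBD2-/- leukaemias, against 14.8, 13.6 and 17.0 in MBD2+/+ leukaemias, at least 12.1-fold higher. Both probe sets point the same way, but replicate 3 was the lowest MBD2-/- leukaemia on the first and the highest on the second. Both are of a design whose probes can match several transcripts.

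Kit (chromosome 5, 75574987 to 75656722) measured 724, 1230 and 450 in MBD2-/- leukaemias, against 21.9, 32.3 and 35.2 in MBD2+/+ leukaemias. It measured 29.5, 29.6 and 32.8 in MBD2-/- DP cells and 32.1, 31.4 and 24.9 in MBD2+/+ DP cells. The 9 arrays outside the MBD2-/- leukaemias were at or below the floor, so the gene was at least 20.9-fold higher there than in MBD2+/+ leukaemias. The log2 difference was 4.05 (SE 0.34), with a wider spread among MBD2-/- leukaemias than for Cpa3. The second probe set gave 95.6, 93.5 and 80.2 in MBD2-/- leukaemias and 15.5 to 16.7 in MBD2+/+ leukaemias, at least 2.54-fold higher.

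FceRI is built from an IgE-binding alpha chain (Fcer1a), a beta chain (Ms4a2) and a gamma chain shared with other receptors (Fcer1g). Fcer1a ranged from 4.96 to 7.26 over the 12 arrays. Ms4a2 ranged from 8.53 to 17.4 and from 9.75 to 16.5 on its 2 probe sets. Neither receptor chain was detectable on any array, including the 3 with the high Cpa3 signal.

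The transcription factors split. Gata2, which acts in blood progenitors and in mast cells (chromosome 6, 88193891 to 88207032), measured 148, 148 and 112 in MBD2-/- leukaemias, against 36.2, 45.5 and 50.3 in MBD2+/+ leukaemias. It measured 61.8, 56.4 and 41.1 in MBD2-/- DP cells and 47.8, 45.2 and 50.7 in MBD2+/+ DP cells. MBD2-/- leukaemias were 3.10-fold higher than MBD2+/+ leukaemias with no overlap (log2 difference 1.34, SE 0.15), and the other 3 groups overlapped. The second probe set lay between 14.6 and 25.4 on all arrays, below the floor.

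Mitf, the master regulator of melanocytes and a factor of mast cell differentiation, did not follow Gata2. It measured 7.42, 13.1 and 9.62 in MBD2-/- leukaemias and 12.8, 13.3 and 11.1 in MBD2+/+ leukaemias, all below the floor. In DP cells it measured 46.6, 25.3 and 44.0 with MBD2-/- and 38.5, 42.2 and 41.3 with MBD2+/+. The DP arrays were thus the higher ones, though 5 of the 6 lay only slightly above the floor and MBD2-/- DP 2 below it. The other Mitf probe set stayed between 8.76 and 13.6.

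Deletion of MBD2 in normal DP thymocytes gave no call for any of these genes. None of the 6 tested genes passed in either direction by limma, and 0 passed even at an unadjusted p under 0.05. In this comparison 0.0324% of all genes tested passed after adjustment (0.0195% higher and 0.013% lower) and 4.68% before it. The log2 difference was 0.05 (SE 0.12, limma adjusted p 0.991) for Cpa3, 0.04 (SE 0.11, adjusted p 0.991) for Kit and 0.01 (SE 0.13, adjusted p 0.997) for Hdc. It was 0.10 (SE 0.14, adjusted p 0.987) for Gata2, -0.08 (SE 0.17, adjusted p 0.991) for Mitf and -0.08 (SE 0.13, adjusted p 0.988) for Tpsb2. Cpa3, Kit and Tpsb2 were below the floor in both DP groups, where a difference is not detectable.

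MBD2+/+ leukaemias were also set against MBD2+/+ DP cells, to see whether leukaemia with MBD2 present carries these genes. Of the 6 genes tested, 0 were higher, 1 was lower and 5 did not pass; of all genes tested 33.9% passed, 19.7% higher and 14.2% lower. The gene counted as lower was Mitf, with a log2 difference of -1.0 (SE 0.09). It was admitted by the filter only through the DP arrays and was below the floor in the leukaemias, so the difference carries no p and the count is not read further. Cpa3 differed by -0.04 (SE 0.11, adjusted p 0.826), Kit by 0.00 (SE 0.14, adjusted p 0.995) and Hdc by -0.00 (SE 0.13, adjusted p 0.996). Gata2 differed by -0.10 (SE 0.12, adjusted p 0.611). These MBD2+/+ leukaemia arrays are also the lower side of the comparison that chose Cpa3. They differ from the DP arrays in Xist and Eif2s3y, so sex and leukaemia cannot be told apart here.

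MBD2-/- leukaemias set against MBD2-/- DP cells showed the same 4 genes higher. By the threshold, 4 of the 6 were higher, 1 was lower (Mitf, admitted by the filter through the DP arrays, log2 difference -1.05, SE 0.18) and 1 did not pass, while 29.4% of all genes tested passed, 18.5% higher and 11% lower. The log2 differences were 7.61 (SE 0.12) for Cpa3, 4.02 (SE 0.32) for Kit, 2.49 (SE 0.20) for Hdc and 1.14 (SE 0.16) for Gata2. This comparison shares the MBD2-/- leukaemia arrays with the one that chose Cpa3. The MBD2 effect in leukaemia minus that in DP cells, from 1 fit of all 12 arrays, passed for 4 of the 6 genes, all higher, against 12.6% of all genes tested (7.86% higher and 4.74% lower). Its sizes were 7.65 (SE 0.16) for Cpa3, 4.02 (SE 0.39) for Kit, 2.49 (SE 0.25) for Hdc and 1.24 (SE 0.20) for Gata2.

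Beyond these 9 genes, 79 further genes with a role in mast cells were listed by function; 71 had a probe set and 60 were tested. In MBD2-/- against MBD2+/+ leukaemias 23 were higher, 1 was lower and 36 did not pass. That is 40% called, against 16.2% of all genes tested, and their median log2 difference was 0.20 against -0.06 over all genes. The lists were chosen with earlier results of these data known. Shares of the lists set against all genes, here and below, are therefore descriptions only. Genes are named from the lists mainly by smallest p, so their limma adjusted p-values are likewise descriptions and give no support to a list. With replicate numbers fitted as a block, 26 were higher and 3 lower. Leaving out MBD2-/- leukaemia 3 gave 2 lower. Of the 24 genes called, 6 had every MBD2+/+ leukaemia array at or below the floor. Their fold is given as a lower bound, except where a MBD2-/- array was also below the floor, and their log2 differences describe fitted values only. Between DP genotypes 0 of the 60 passed by limma's adjusted p. Many of these genes, above all the signalling and transcription factor genes, also act in T cells or in blood progenitors.

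**Figure D2:**
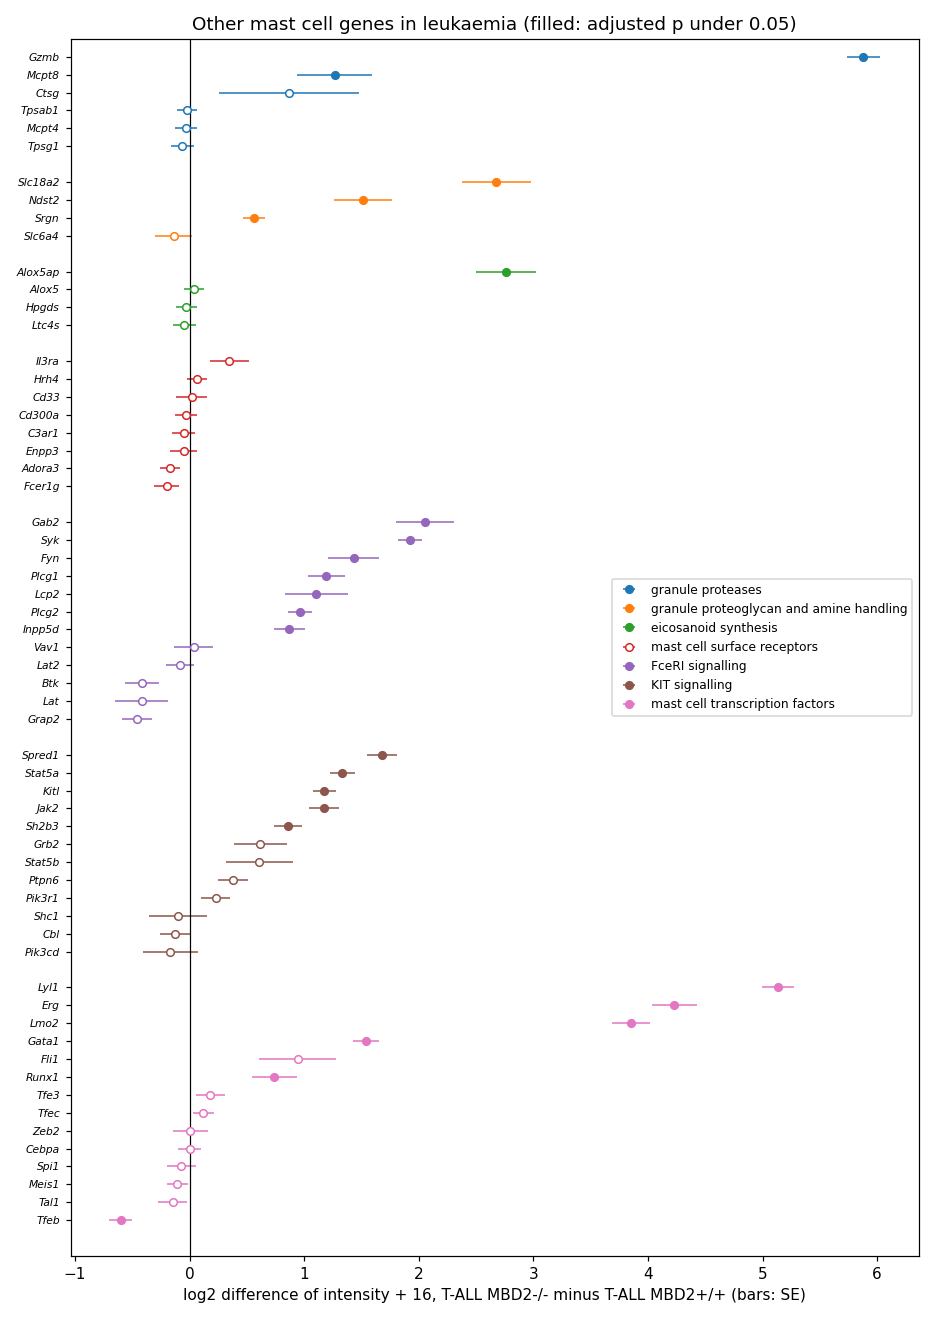
Difference between leukaemia genotypes (MBD2-/- minus MBD2+/+) on the scale of log2(intensity + 16) for the 60 tested genes of the wider mast cell lists, coloured by role, with bars for the SE and filled points for a limma adjusted p under 0.05. Gzmb, Lyl1, Erg and Lmo2 lie farthest to the right, and the surface receptors lie near 0 with no filled point.

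Of the granule proteases, 2 of 6 tested genes were higher and 4 did not pass, with a median log2 difference of 0.42. That is 33.3% called, against 16.2% of all genes tested (9.19% higher and 6.98% lower). This share of all genes also stands beside the counts of the other function lists below between leukaemia genotypes. Gzmb, granzyme B, best known from cytotoxic lymphocytes, measured 2245 ± 165 in MBD2-/- leukaemias against 22.7 ± 6.55 in MBD2+/+ leukaemias (SD, n = 3 each; log2 difference 5.88, SE 0.14, limma adjusted p 3.28e-06), at least 63.6-fold higher. Mcpt8, a protease characteristic of basophils, measured 82.1, 21.3 and 58.0 in MBD2-/- leukaemias and 10.9 ± 0.358 in MBD2+/+ leukaemias, which were below the floor. It passed the filter only through the MBD2-/- leukaemia arrays, so it carries no p although it is among the genes counted as higher. Replicate 2 of the MBD2-/- leukaemias was itself below the floor for Mcpt8. Ctsg, cathepsin G, named here after its values were seen, was high on 1 array: it gave 29.1, 24 and 201 in MBD2-/- leukaemias against 24.2 ± 3.19 in MBD2+/+ leukaemias (adjusted p 0.422). The connective tissue mast cell protease Mcpt4 and the tryptase Tpsab1, likewise named after their values were seen, gave 18.7 and 14.4 in MBD2-/- leukaemias, against 19.4 and 14.9 in MBD2+/+ leukaemias, all below the floor.

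Of the genes that load granules with proteoglycan and amines, 3 of 4 tested were higher and 1 did not pass, with a median log2 difference of 1.04. Slc18a2, the vesicular monoamine transporter that packs histamine into granules, measured 178, 363 and 371 in MBD2-/- leukaemias against 32.5 ± 10.9 in MBD2+/+ leukaemias (log2 difference 2.68, SE 0.30, adjusted p 0.00138). Ndst2, an enzyme of heparin sulphation, averaged 789 ± 252 in MBD2-/- and 259 ± 47.5 in MBD2+/+ leukaemias (log2 difference 1.51, SE 0.25, adjusted p 0.00804). Srgn, the granule proteoglycan core protein serglycin, averaged 7852 ± 559 in MBD2-/- and 5310 ± 188 in MBD2+/+ leukaemias (log2 difference 0.56, SE 0.10, adjusted p 0.00985). Srgn was abundant in all 4 groups.

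Of the 4 tested genes of eicosanoid synthesis, which makes leukotrienes and prostaglandins, 1 was higher, and the median was 0.00. This was Alox5ap, the protein that presents arachidonic acid to 5-lipoxygenase, at 816, 378 and 501 in MBD2-/- leukaemias against 65.9 ± 8.45 in MBD2+/+ leukaemias (log2 difference 2.76, SE 0.26, adjusted p 0.000687). Ltc4s, leukotriene C4 synthase, measured 21.6 ± 2.35 in MBD2-/- and 22.8 ± 2.15 in MBD2+/+ leukaemias, both below the floor.

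Of the wider list of mast cell surface receptors, which does not hold Kit, none passed in leukaemia: 0 of 8 tested genes were higher and 0 lower by limma's adjusted p, with a median of -0.04. Il3ra, the IL-3 receptor alpha chain, measured 86 ± 22 in MBD2-/- and 62.8 ± 1.32 in MBD2+/+ leukaemias (adjusted p 0.227), and the adenosine receptor Adora3 35.8 ± 0.9 and 42.3 ± 0.989 (adjusted p 0.259). Fcer1g, the gamma chain of FceRI, named here because it completes the receptor, measured 29 ± 4.29 in MBD2-/- and 35.6 ± 1.9 in MBD2+/+ leukaemias (adjusted p 0.275). All 3 chains of FceRI thus averaged below the floor in MBD2-/- leukaemias.

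Of the signalling genes downstream of FceRI, 7 of 12 were higher and 0 lower in MBD2-/- leukaemias, with a median log2 difference of 0.92. Syk, the tyrosine kinase recruited by the gamma chain, averaged 132 ± 4.32 in MBD2-/- and 23.3 ± 3.64 in MBD2+/+ leukaemias (log2 difference 1.92, SE 0.10, adjusted p 6.43e-05), at least 3.75-fold higher. DP cells had 192 ± 16.2 with MBD2-/- and 203 ± 16.5 with MBD2+/+, so MBD2+/+ leukaemias were the low group. Gab2, an adaptor of the receptor, showed another pattern, with 143 ± 44.9 in MBD2-/- leukaemias against 21.7 ± 7.85 in MBD2+/+ leukaemias and 20.9 ± 2.62 and 24.7 ± 2.67 in MBD2-/- and MBD2+/+ DP cells (log2 difference 2.06, SE 0.25, adjusted p 0.00206). Gab2 was at least 3.92-fold higher than in MBD2+/+ leukaemias. The phospholipases Plcg2 and Plcg1 were higher by 0.96 (SE 0.11, adjusted p 0.00131) and 1.19 (SE 0.16, adjusted p 0.00313). In MBD2+/+ leukaemias against MBD2+/+ DP cells, 1 of these 12 genes was higher and 8 were lower, with a median of -0.90 against 0.06 over all genes. That is 75% called, against 33.9% of all genes tested. The genes that fell there included Syk (log2 difference -2.48), Fyn (-1.49) and Plcg1 (-1.24), kinases and a phospholipase that T cell receptor signalling also uses.

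Of the KIT signalling genes, 5 of 12 were higher and 0 lower in MBD2-/- leukaemias, with a median of 0.61. Spred1, an inhibitor of RAS signalling, averaged 484 ± 64.9 against 140 ± 15.1 in MBD2+/+ leukaemias (log2 difference 1.68, SE 0.13, adjusted p 0.000279). The transcription factor Stat5a and the kinase Jak2 were higher by 1.33 (SE 0.11, adjusted p 0.000337) and 1.17 (SE 0.14, adjusted p 0.00155). Jak2 averaged 684 in MBD2-/- and 294 in MBD2+/+ leukaemias, against 755 and 761 in MBD2-/- and MBD2+/+ DP cells. In the same order Stat5a averaged 1128, 438, 442 and 668. MBD2+/+ leukaemias against MBD2+/+ DP cells had 0 of these 12 genes higher and 4 lower, 33.3% against 33.9% of all genes tested. MBD2-/- leukaemias against MBD2-/- DP cells had 6 higher and 1 lower, 58.3% against 29.4%. Kitl, the ligand of KIT, measured 56.5, 53.2 and 46.5 in MBD2-/- leukaemias, against 12.4, 15.5 and 14.4 in MBD2+/+ leukaemias (log2 difference 1.18, SE 0.10, adjusted p 0.000448). Its MBD2-/- leukaemia arrays were above the floor and all others below it, a fold of at least 1.47, so receptor and ligand were both measurable in that group.

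Of 14 transcription factors linked to mast cells, 5 were higher, 1 was lower and 8 did not pass, with a median of 0.15. Lyl1, a basic helix-loop-helix factor of blood progenitors, averaged 2649 ± 327 in MBD2-/- and 59.8 ± 9.37 in MBD2+/+ leukaemias (log2 difference 5.14, SE 0.14, adjusted p 4.52e-06). Its partner Lmo2 was higher by 3.85 (SE 0.16, adjusted p 2.07e-05) and the ETS factor Erg by 4.23 (SE 0.20, adjusted p 3.14e-05). For Erg, below the floor in MBD2+/+ leukaemias, that is at least 22.9-fold. Gata1, a GATA factor of erythroid, megakaryocyte and mast cells, averaged 138 ± 12.6 in MBD2-/- and 37 ± 5.05 in MBD2+/+ leukaemias (log2 difference 1.54, SE 0.12, adjusted p 0.000242). Tfeb, a relative of Mitf, was the gene that fell, to 65.9 ± 5.04 against 108 ± 7.16 in MBD2+/+ leukaemias (log2 difference -0.60, SE 0.10, adjusted p 0.00766); it was named after its value was seen.

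Over the same wider lists, 9 of 60 genes were higher and 13 lower in MBD2+/+ leukaemias against MBD2+/+ DP cells, and leaving out MBD2+/+ DP 1 gave 5 higher. That is 36.7% called, near the 33.9% of all genes tested. In MBD2-/- leukaemias against MBD2-/- DP cells, 20 were higher and 4 lower, 40% against 29.4% of all genes. The MBD2 effect in leukaemia minus that in DP cells was higher for 23 and lower for 1, 40% against 12.6% of all genes.

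No other tested carboxypeptidase was higher in MBD2-/- leukaemias. In the metallocarboxypeptidase family 14.3% of 7 tested members were called, against 16.2% of all genes tested. Of these members 0 were higher, 1 was lower and 6 did not pass, with a median of -0.08. That gene was Cpm, a membrane-bound carboxypeptidase, at 35.9 ± 2.95 in MBD2-/- and 88.5 ± 27.4 in MBD2+/+ leukaemias (log2 difference -0.98, SE 0.20, adjusted p 0.0163). The next smallest p in the family was that of Cpa1, a pancreatic carboxypeptidase, at 15.1 ± 2.64 in MBD2-/- and 19.3 ± 4.19 in MBD2+/+ leukaemias (adjusted p 0.422). The protein-coding gene next to Cpa3, the related carboxypeptidase Cpb1, was below the floor in all groups, at 11.7 ± 3.32 in MBD2-/- and 8 ± 0.966 in MBD2+/+ leukaemias.

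On chromosome 3, the neighbours of Cpa3 showed small differences or none that passed. Gyg, glycogenin, which primes glycogen synthesis and lies on the other side of Cpa3 from Cpb1, averaged 1522 ± 142 in MBD2-/- and 818 ± 103 in MBD2+/+ leukaemias (log2 difference 0.89, SE 0.13, adjusted p 0.00441). Hltf, a helicase-like factor next to Gyg, was higher by 0.57 (SE 0.12, adjusted p 0.0204). Hps3 differed by -0.02 (adjusted p 0.961), Tbl1xr1 by 0.17 (adjusted p 0.332) and Cp, below the floor in all groups, by -0.07 (adjusted p 0.742). Crh, Agtr1b, Naaladl2 and Nlgn1 were below the floor in all groups and, like Cpb1, not tested.

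**Figure D3:**
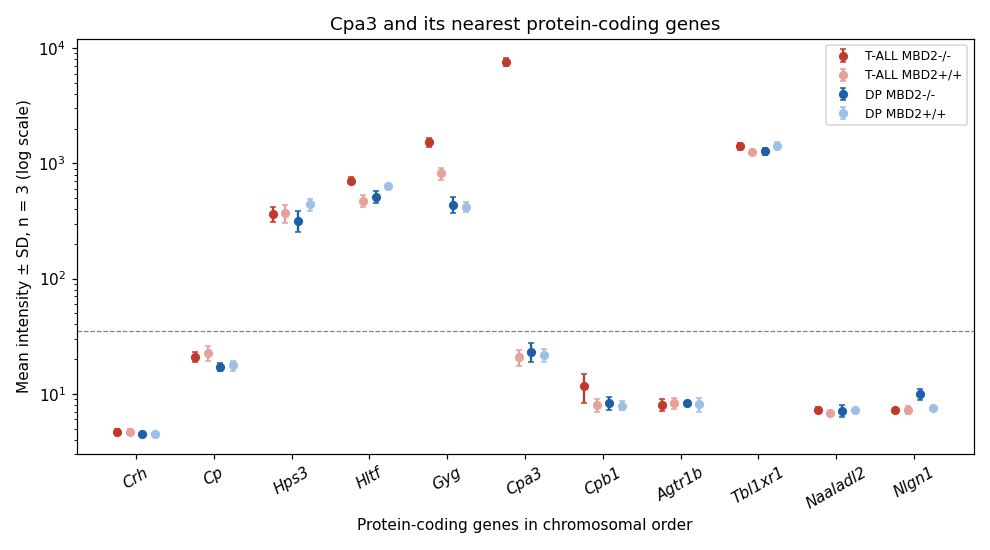
Mean intensity on a log axis, with SD over 3 arrays, of Cpa3 and the 5 nearest protein-coding genes on either side in chromosomal order, for the 4 groups. The dashed line is the background floor of 35.3. Cpa3 in MBD2-/- leukaemias stands alone, and the group means of each neighbouring gene lie far closer together.

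The genes whose levels followed Cpa3 most closely over the 12 arrays were Plscr2 (Pearson r 0.9996), Tgfb2 (0.9986), Garem1 (0.9985), Afap1l1 (0.9977) and Pof1b (0.9976), of 15419 compared. Tgfb2, a transforming growth factor beta ligand, measured 2231, 1790 and 2065 in MBD2-/- leukaemias and from 11.4 to 14.7 on the other 9 arrays. Among the mast cell genes r with Cpa3 was 0.9832 for both Hdc and Kit, at ranks 77 and 78, and 0.9550 for Gata2 at rank 208. Mitf had -0.6082 and Tpsb2 -0.0441. These correlations mostly restate 3 high arrays against 9 low ones and are given as a description. Plscr2, Garem1 and Pof1b passed the filter only through those 3 high arrays, so their places in the ranking rest on them.

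Markers of other cell types were read on the same arrays; in these bulk samples fewer cells of a type and less RNA per cell cannot be told apart. The summed intensity of the 9 mast cell genes, most of it Cpa3, ran from 8218 to 9766 in MBD2-/- leukaemias, against 178 to 218 in MBD2+/+ leukaemias. Eosinophil markers were all below the floor, 6 of 6 on every array, Prg2 and Prg3 included, with sums of 76.4 to 77.9 in MBD2-/- and 76.2 to 82.2 in MBD2+/+ leukaemias. Of 5 tested basophil markers 3 (60%, against 9.19% of all genes tested) were counted as higher in MBD2-/- leukaemias. They were Itga2, Il4 and, admitted by the filter only through those arrays, Mcpt8. All 3 were below the floor on every MBD2+/+ leukaemia array, while Cd200r3 and Il6 were at or below the floor on all arrays. Their sum ran from 523 to 817 in MBD2-/- and from 365 to 676 in MBD2+/+ leukaemias, which overlap. The cytokine Il4 measured 51.1, 29.9 and 70.5 in MBD2-/- and 20.4 ± 1.65 in MBD2+/+ leukaemias (log2 difference 0.82, SE 0.22, adjusted p 0.049). Replicate 2 of the MBD2-/- leukaemias was thus below the floor for Il4. The integrin Itga2 averaged 49 ± 4.18 in MBD2-/- and 33 ± 1.18 in MBD2+/+ leukaemias (adjusted p 0.0297).

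Markers of early T and multipotent progenitors were shifted too, 6 higher and 1 lower of 12 tested and a median of 0.59. That is 58.3% called, against 16.2% of all genes tested. Their sums were 11091 to 11744 in MBD2-/- and 703 to 771 in MBD2+/+ leukaemias. Cd93 averaged 3454 ± 157 in MBD2-/- and 18.8 ± 1.43 in MBD2+/+ leukaemias (log2 difference 6.64, SE 0.09, adjusted p 5.15e-07). Hhex was higher by 6.03 (SE 0.21, adjusted p 9.59e-06) and Nfe2 by 4.96 (SE 0.12, adjusted p 3.1e-06). All 3 were below the floor in MBD2+/+ leukaemias, so the folds are at least 97.9 for Cd93, 73.2 for Hhex and 36.7 for Nfe2. The gene that fell was Cd44, an adhesion receptor of early T cell progenitors, at 21 ± 7.9 in MBD2-/- leukaemias, below the floor, against 273 ± 31.8 in MBD2+/+ leukaemias (adjusted p 0.000105). Cd44, named after its value was seen, was at least 7.70-fold lower. The defining marker Cd34 was at or below the floor on all arrays, and Flt3 measured 36.5 ± 2.01 in MBD2-/- and 51.6 ± 4.68 in MBD2+/+ leukaemias (adjusted p 0.051). Lyl1 and Lmo2 belong to this list as well as to the mast cell factors.

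The sums of neutrophil markers went the other way, 304 to 960 in MBD2-/- and 1179 to 2075 in MBD2+/+ leukaemias. Of 10 tested markers 0 were higher and 2 lower, with a median of -0.63. That is 20% called, against 16.2% of all genes tested (9.19% higher and 6.98% lower). This share of all genes also stands beside the other counts of this paragraph. The genes counted as lower were Mpo, myeloperoxidase, which was at or below the floor on all arrays, and Ltf, lactoferrin, at 31.2 ± 15.5 in MBD2-/- and 69.4 ± 6.3 in MBD2+/+ leukaemias (adjusted p 0.0431). Elane, neutrophil elastase, measured 26.8 ± 3.95 and 29.7 ± 8.87 (adjusted p 0.795). Monocyte and macrophage markers had 0 higher and 1 lower of 9, 11.1% called. Lyz2, lysozyme, measured 31.4 ± 5.26 in MBD2-/- and 55.4 ± 6.78 in MBD2+/+ leukaemias (adjusted p 0.0201), and Csf1r, the receptor for macrophage colony-stimulating factor, measured 68.8 ± 3.61 in MBD2-/- and 78.3 ± 7.14 in MBD2+/+ leukaemias. Of 4 tested megakaryocyte markers 1 was higher, the integrin Itga2b, at 274 ± 50.9 in MBD2-/- and 101 ± 16.2 in MBD2+/+ leukaemias (adjusted p 0.00273), with Pf4 and Ppbp at or below the floor on all arrays and sums of 382 to 472 in MBD2-/- and 234 to 281 in MBD2+/+ leukaemias. Erythroid markers had 0 higher and 4 lower of 7, 57.1% called, with sums of 290 to 336 in MBD2-/- and 449 to 568 in MBD2+/+ leukaemias. Klf1 of this list, named after its values were seen, did not pass and went the other way. It measured 79.2, 101 and 118 in MBD2-/- and 64.8, 40.0 and 64.7 in MBD2+/+ leukaemias. The lower erythroid genes were the carbonic anhydrase Car2 (log2 difference -1.76, adjusted p 0.00293), the erythropoietin receptor Epor (-0.67, adjusted p 0.0117), the haem synthesis enzyme Alas2 (-0.69, adjusted p 0.0315) and Car1. Car2 also measured 106 ± 13.6 in MBD2-/- and 148 ± 2.62 in MBD2+/+ DP cells. Car1 was below the floor on all arrays and passed the filter only through MBD2+/+ leukaemias. B cell markers had 1 higher and 0 lower of 6, 16.7% called. Cd79b, a chain of the B cell receptor, averaged 47 ± 6.19 in MBD2-/- and 24.4 ± 5.88 in MBD2+/+ leukaemias, the latter below the floor (adjusted p 0.0248). DP cells had more Cd79b than either, 151 ± 11.3 with MBD2-/- and 160 ± 20.9 with MBD2+/+. Blnk averaged 61.9 ± 41 in MBD2-/- and 24.6 ± 4.45 in MBD2+/+ leukaemias (adjusted p 0.2), and Cd79a was at or below the floor on all arrays. Sums of the B cell markers were 161 to 232 in MBD2-/- and 135 to 137 in MBD2+/+ leukaemias. Thymocyte and T cell markers had 0 of 12 higher and 6 lower, with a median of -0.59, but their sums remained high, 16546 to 19663 in MBD2-/- and 25958 to 31811 in MBD2+/+ leukaemias, against 53377 to 69596 in MBD2-/- and 56869 to 71118 in MBD2+/+ DP cells. The genes that fell included Ptcra and Cd8b1. Ptcra, the pre-T cell receptor alpha chain, fell to 31.6 ± 7.99 in MBD2-/- leukaemias against 1583 ± 183 in MBD2+/+ leukaemias (log2 difference -5.08, SE 0.15, adjusted p 6.72e-06). Cd8b1, a chain of the CD8 coreceptor, fell to 62.3 ± 33.2 against 3632 ± 1107 (-5.57, SE 0.34, adjusted p 9.88e-05). The coreceptor Cd4 and the surface glycoprotein Thy1 fell by 1.39 (adjusted p 0.000199) and 2.37 (adjusted p 0.000201), and Cd8a and Rag1 were the other two. The CD3 chains of the T cell receptor complex did not pass: Cd3d averaged 7282 ± 1383 in MBD2-/- and 6247 ± 829 in MBD2+/+ leukaemias (adjusted p 0.482), and Cd3e 2582 ± 404 and 2177 ± 235 (adjusted p 0.35). The part of any of these cell types in the Cpa3, Kit, Hdc and Gata2 signal was not tested.

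**Figure D4:**
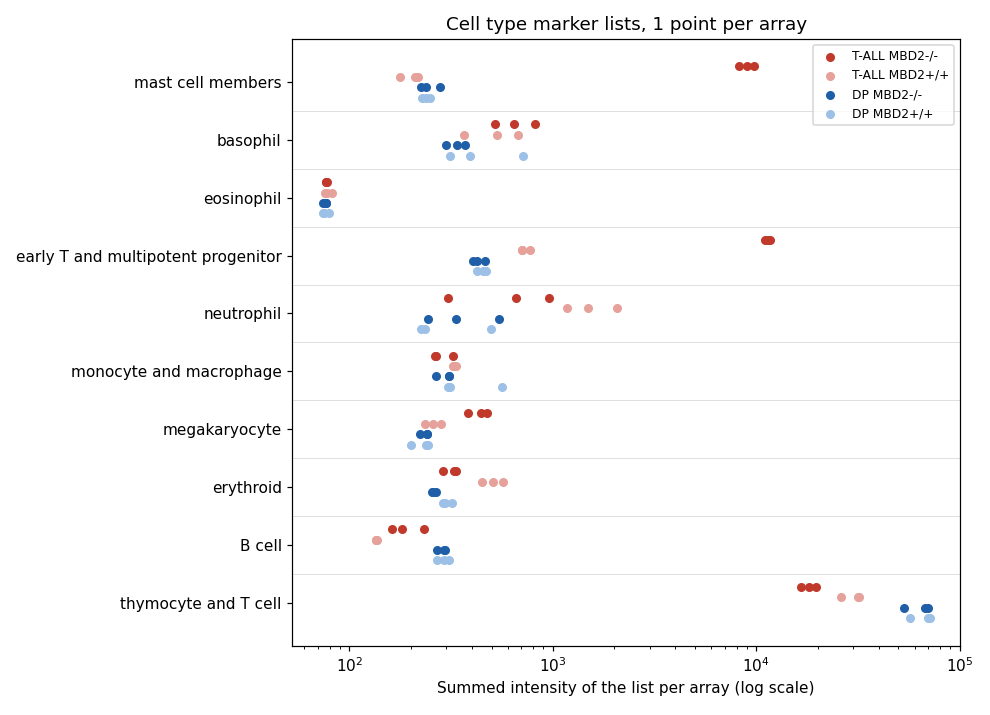
Summed intensity on a log axis of each cell type marker list, with 1 point per array coloured by group. The sums of the mast cell genes and of the progenitor markers are far higher in MBD2-/- leukaemias than in the other groups, the eosinophil sums are alike in all groups, and the neutrophil sums are highest in MBD2+/+ leukaemias.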

How the data were processed

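Biotin-labelled cRNA from 7 µg of total RNA per sample was hybridised to 12 mouse Affymetrix 430 2.0 arrays, per the labels' protocols. The authors deposited linear intensities per probe set, ranging from 3.07 to 21620; how they were summarised, background-corrected and normalised is not given in the sources used here. Medians of the arrays lay between 36.5 and 39.3, a spread of 0.0752 on the log2 scale, so no further normalisation was applied. The number of arrays limits the precision.

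Of 45101 probe sets, 34945 carried 1 gene in the annotation, 932 carried several, 9160 carried none and 64 were controls. Gene identifiers matched a GRCm38.p6 table for 34741 probe sets, and 0 were renamed. Each gene was represented by its probe set with the highest mean. A gene was tested if 3 or more arrays gave it a value over that array's 25th percentile (15420 genes; 2773 were left out). The fits used log2(intensity + 16) and limma 3.58.1 (R 4.3.3) with lmFit and with eBayes in its plain form, without trend or robust settings. Each pairwise comparison had its own fit, and the difference of effects used all 12 arrays. The threshold was a Benjamini-Hochberg adjusted p under 0.05 over all genes tested. The script was tested on simulated data. Figures were drawn with matplotlib 3.10.9 in Python 3.11.15.

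The 9 genes and the 17 marker and role lists (183 entries, 159 with a probe set, 134 tested) were chosen with earlier results of these data known. The rule for naming genes allowed, from each list, up to 4 genes past the threshold, by smallest p (the leading 2 where fewer pass), and the first 2 markers of each cell type. It also names the 5 neighbours of Cpa3 on either side and the 5 genes most correlated with it. Genes described as named after their values were seen are outside this rule.

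Equal replicate numbers were checked for pairing by correlating residuals from the group means. They gave r of 0.401, 0.235 and 0.549 between leukaemia genotypes and 0.445, 0.443 and 0.583 between MBD2+/+ leukaemias and DP cells, which meets the criterion for pairing set here (every r over 0.1). The reported fits are nevertheless without the block, and blocked counts are given where they differ by over 1.5 times. Equal numbers did not meet the criterion between the DP genotypes (-0.523, 0.145 and -0.494) or between MBD2-/- leukaemias and DP cells (-0.391, 0.094 and -0.428). The 3′ to 5′ Gapdh ratio rose from replicate 1 to 3 in both leukaemia groups and in MBD2+/+ DP cells. In MBD2-/- DP cells it fell, from 3.33 to 1.12. The labels do not state what equal numbers share, and the part of this ratio in the correlations was not tested.

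Alternatives were quantile normalisation, a filter at each array's median or none, probe set means per gene, eBayes with trend and robust, added constants of 1 and 64, replicate number or poly-A set as a block, all 12 arrays in each fit, and leaving out each array.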

Additional observations from a re-analysis of the deposited data

Results flagged for a closer look

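The flag fell on 4 of the mast cell genes, whose difference of effects between leukaemia and DP thymocytes passed the threshold in the fit of all 12 arrays. That difference of effects on the log2 scale was 7.65 for Cpa3, 4.02 for Kit, 2.49 for Hdc and 1.24 for Gata2. The effect in leukaemia alone was 7.70 for Cpa3, 4.05 for Kit, 2.50 for Hdc and 1.34 for Gata2. In DP cells it was 0.05 for Cpa3, 0.04 for Kit, 0.01 for Hdc and 0.10 for Gata2. Cpa3 and Kit were below the floor in both DP groups, so their DP values describe the fit only. Sex and genotype cannot be told apart in the leukaemias. The leukaemia arrays chose Cpa3, so the values are given without a p and the flag is not read further.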

How the results depend on the processing

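The counts of mast cell genes called were the same under all 16 alternatives of each pairwise comparison and all 21 of the difference of effects. Between leukaemia genotypes the log2 difference ranged from 6.5 to 8.46 for Cpa3, 2.88 to 4.61 for Kit, 1.89 to 3.16 for Hdc and 0.82 to 1.61 for Gata2. Tpsb2 has no value under the filter at the array median, which left it out. The count of wider mast cell genes lower in MBD2-/- leukaemias, 1 as reported, was 2 with quantile normalisation, with trend and robust and with an added constant of 1, and from 1 to 2 when each array was left out. With the replicate number as a block it was 3, and the block changed no call of the 9 genes. The count of wider genes higher in MBD2+/+ leukaemias against MBD2+/+ DP cells, 9 as reported, ran from 5 to 7 when each array was left out, with 5 without MBD2+/+ DP 1. The cause of these moves was not tested, apart from the fewer samples when an array is left out. Signal over background limits Cpa3, Kit, the second Hdc probe set and the other genes given as "at least" to lower bounds of fold, since their lower groups lie at or below the floor.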
